A study of Mus musculus with 15 samples.

Results

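The genes described here are Lin28a, Lin28b, Hmga1, Hmga2, Igf2bp1, Igf2bp2, Igf2bp3, Trim71 and Arid3a, 9 of the 54232 genes in a table of RNA sequencing counts from the developing mouse palate. They were taken as a named list, matched by symbol through the GENCODE mouse annotation, and all 9 passed the filter on low counts that left 22151 genes for testing. The tissue was the secondary palate, the shelf of tissue that comes to separate the mouth from the nasal cavity, dissected from wild-type mice. Samples were taken at 13.5, 14.5, 15.5 and 16.5 days of gestation, written E13.5, E14.5, E15.5 and E16.5 below, and on the day of birth (P0). Each of the 5 stages is represented by 3 libraries, and 3 embryos were combined for each of them. The labels give no strain, sex or treatment and do not say whether the pools of a stage came from separate litters, so the p-values measure only the spread between these pools.

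The libraries held 21470759 to 69019565 counts (median 61027072), and those of E13.5 and E14.5 (63652439 or more) were all deeper than those of E16.5 and P0 (52258321 or fewer). Levels are given as CPM, the counts scaled to a library total of 1000000, after adjustment of the library totals by edgeR's trimmed mean of M values (TMM). On this scale 3 counts, used as the detection floor, stood for 0.0421 to 0.131 CPM, a limit that covers counting error only. The palatal mesenchyme gene Shox2 was present in every library, at 55.5 to 73.1 CPM at E13.5 and 3.11 to 16.6 CPM at P0, and the palatal gene Tbx22 was at 16.7 to 24.7 CPM at E13.5. In bulk tissue a lower level can come from fewer cells of a type or from less RNA in each cell, and these cannot be told apart.

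As background, Lin28a and Lin28b are RNA-binding proteins that hold back the maturation of the microRNA let-7. Let-7 in turn represses mRNAs that carry its matches in their 3′ untranslated region (3′ UTR), and these include Lin28 itself, Hmga2, Trim71, Arid3a and the Igf2bp genes. Hmga1 and Hmga2 are architectural chromatin proteins that bind AT-rich DNA. Igf2bp1, Igf2bp2 and Igf2bp3 bind mRNAs and affect their stability, transport and translation. Trim71 is an RNA-binding ubiquitin ligase of early development, and Arid3a is a DNA-binding transcription factor. Such genes are called oncofetal because they are high in embryonic tissue, low in most adult tissue, and high again in many tumours.

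The let-7 seed and its matches are shown first because all 9 genes share them. The genes were chosen by name, but most of them are known let-7 targets. The share of the 9 genes that hold a match is therefore not independent of the choice. The mature sequences below are from RefSeq (GRCm38.p6), with the seed, bases 2 to 8, in capitals. Of the 11 let-7 and miR-98 names in that table, 10 share the seed GAGGUAG and 1, let-7j, has GAGGUAU.
let-7a-5p: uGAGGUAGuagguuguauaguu
let-7g-5p: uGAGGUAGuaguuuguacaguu
miR-98-5p: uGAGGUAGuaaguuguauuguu

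The reverse complement of the shared seed, CTACCTC, was searched on the sense strand of each gene's longest annotated 3′ UTR (GENCODE M21, GRCm38). All 9 genes held it at least 1 time, against 9.02% of the 3′ UTRs of 21022 genes. Hmga2, Lin28b, Igf2bp1 and Trim71 each held 4 matches, as did only 12 genes (0.0571%) with 4 or more. Lin28a and Arid3a held 2, and Hmga1, Igf2bp2 and Igf2bp3 held 1. Long 3′ UTRs hold more matches by length alone, and those of the 9 genes ran from 1183 bases in Hmga1 to 6337 in Igf2bp1, against a median of 960 over all genes. Among 3′ UTRs within 20% of the same length, 4 or more matches were held by 0.134% of those like Hmga2, 0.236% of those like Lin28b, 0.355% of those like Igf2bp1 and 0.505% of those like Trim71. At least 1 match was held by 8.08% of those like Hmga1, 12.1% of those like Igf2bp2 and 13.3% of those like Igf2bp3, so a single match is common at those lengths. A match is a string of letters and not a measured binding site.

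The windows below give the 4 matches of Hmga2 and of Lin28b, the first of Igf2bp1, the closely spaced last pair of Trim71, and a match of Lin28a and of Igf2bp3 for comparison. Each window has 29 bases in the 5′ to 3′ sense of the transcript, with the 7 letters of the match in capitals, and all of these lie on the minus strand of GRCm38 within annotated 3′ UTRs.
Hmga2 match 1, chr10:120364224-120364252: gggggcgccgacattcaatttCTACCTCa
Hmga2 match 2, chr10:120362987-120363015: aataatccccactcctcaataCTACCTCt
Hmga2 match 3, chr10:120362549-120362577: gacttcctgatttgcaaggaaCTACCTCc
Hmga2 match 4, chr10:120361691-120361719: ttgtacaatcaaaacacactaCTACCTCt
Lin28b match 1, chr10:45381022-45381050: cccttcacccgggcgggaagtCTACCTCa
Lin28b match 2, chr10:45378648-45378676: cgtacatatacttgttagtaaCTACCTCt
Lin28b match 3, chr10:45378476-45378504: aattctgtttacagcacatggCTACCTCc
Lin28b match 4, chr10:45377060-45377088: gcttggaaatgatggcaccgaCTACCTCt
Igf2bp1 match 1, chr11:95961778-95961806: ggcagtgctgtgcgaagtaaaCTACCTCa
Trim71 match 3, chr9:114509047-114509075: attttgtttagtatggattttCTACCTCa
Trim71 match 4, chr9:114509021-114509049: tcaattttggcaaaaagttgtCTACCTCa
Lin28a match 1, chr4:134005189-134005217: tggagtgcacagcctgttgaaCTACCTCa
Igf2bp3 match 1, chr6:49086787-49086815: taaacgtgcatttttactcaaCTACCTCa

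All 9 genes were lower at P0 than at E13.5, and in each of them the 3 P0 libraries lay below the 3 E13.5 libraries. The falls ran from 28.7-fold in Trim71, 24.9-fold in Hmga2, 11.9-fold in Lin28b and 9.24-fold in Igf2bp1 to 1.60-fold in Arid3a. All 9 passed edgeR's quasi-likelihood test at an adjusted p under 0.05, where 56.6% of the 22151 tested genes were called, 26.8% lower and 29.8% higher, and 28.9% had non-overlapping libraries in this direction. The median log2 fold change of the 9 genes was -1.80, against 0.03 over all tested genes. By the size of the fall, Trim71 ranked 74, Hmga2 84, Lin28b 200 and Igf2bp1 277 of 22151, while Arid3a ranked 5665. Lin28a, with 3 to 67 counts in a library, lost its call without E13.5 replicate 1 or 2 or P0 replicate 2 or 3 (edgeR adjusted p from 0.0507 to 0.103). Arid3a lost it without P0 replicate 1 (-0.44, edgeR adjusted p = 0.0602).

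**Figure D1:**
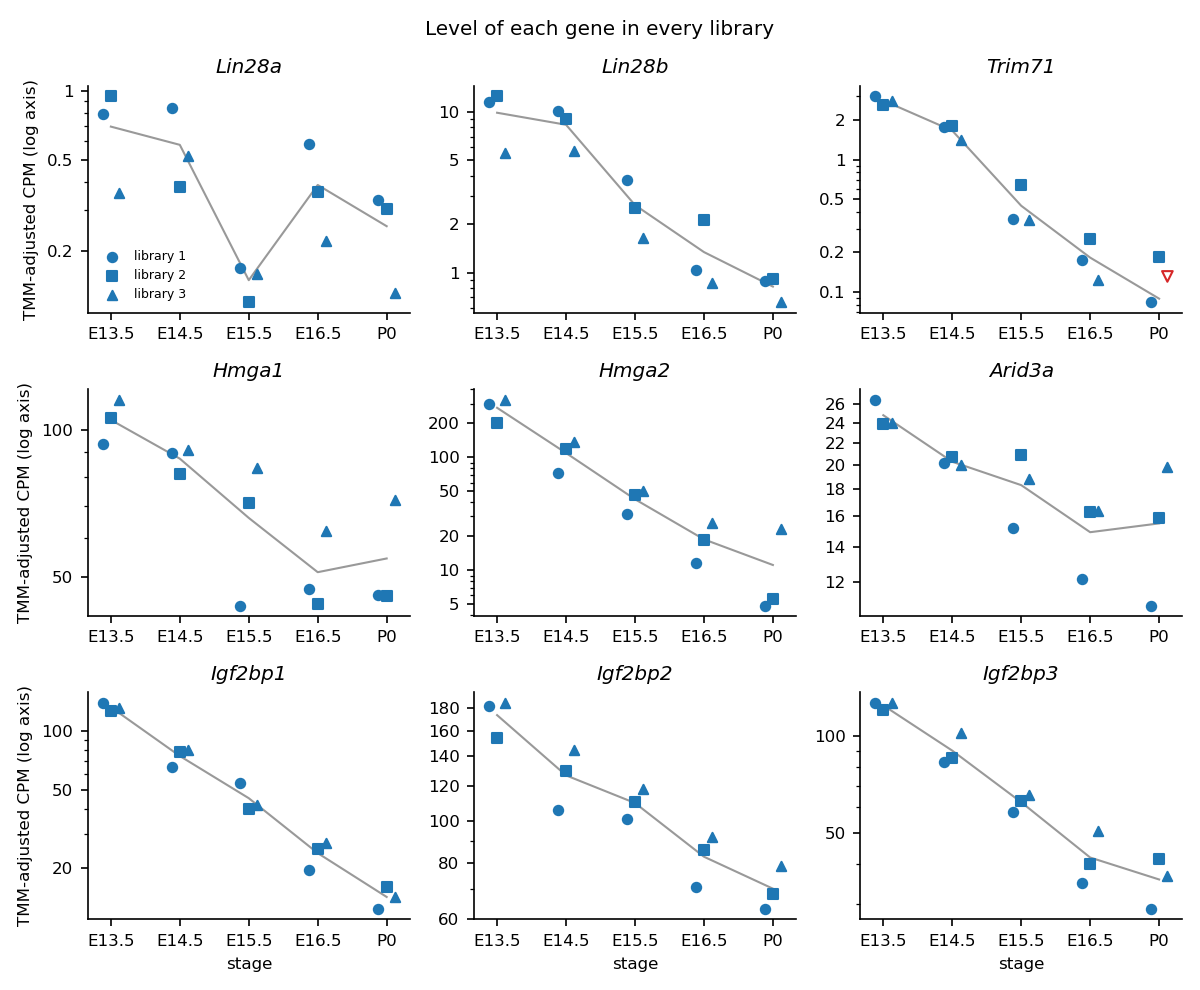
The TMM-adjusted CPM of each gene (log axis) at the 5 stages, with 1 point per library, shaped by replicate number, and a line through the stage means. The open red triangle marks the Trim71 library with 0 counts, drawn at its floor of 3 counts; Hmga2 spans 326 CPM at E13.5 to 4.88 CPM at P0, with 1 P0 library at 23.0 CPM.

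The falls were spread over the time course and few single steps passed the test. From E14.5 to E15.5, 5 of the 9 genes fell (Lin28a, Lin28b, Trim71, Igf2bp1 and Igf2bp3; edgeR adjusted p under 0.05), where 26.1% of tested genes were called and 13.4% were called lower. An unadjusted p under 0.05 was found for 6 of the 9, against 39.7% of tested genes, and DESeq2 called 6 lower, against 14.2% of the genes for which it gave an adjusted p. Without E15.5 replicate 2 edgeR's count of 5 became 2, and without either E14.5 replicate 1 or E15.5 replicate 3 it became 3. It was also 3 when only genes with a mean of at least 1 CPM were tested. From E13.5 to E14.5 none of the 9 passed edgeR's test, as in nearly all genes (0.00903% called), and 7 had non-overlapping libraries in the downward direction against 13.7% of tested genes. At that step 4 had an unadjusted p under 0.05, against 16% of tested genes, and DESeq2 called 1 lower, against 1.42%. From E15.5 to E16.5 only Igf2bp1 passed (1.41% of tested genes called, 0.379% lower and 1.03% higher), with 5 genes not overlapping downward against 15.5%, and Lin28a not overlapping upward. An unadjusted p under 0.05 was found for 7, Lin28a upward among them, against 21.8%, and DESeq2 called 3 lower, against 3.39%. The edgeR call of Igf2bp1 was lost without any 1 of E15.5 replicates 1, 2 and 3 or E16.5 replicates 1 and 2. Without E16.5 replicate 3, edgeR called 2 of the genes. From E16.5 to P0 none passed edgeR's test (0.352% of tested genes called, 0.163% lower), and 1 gene did not overlap downward against 5.39%. An unadjusted p under 0.05 was found for 1, a share near the 11.7% of all tested genes, and DESeq2 called 1 lower, against 1.49%. Without E16.5 replicate 1 that step had 1 call, Igf2bp1 (edgeR adjusted p = 0.0348). Over all 5 stages together, 9 of 9 genes changed (edgeR F test), as did 59.1% of tested genes.

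**Figure D2:**
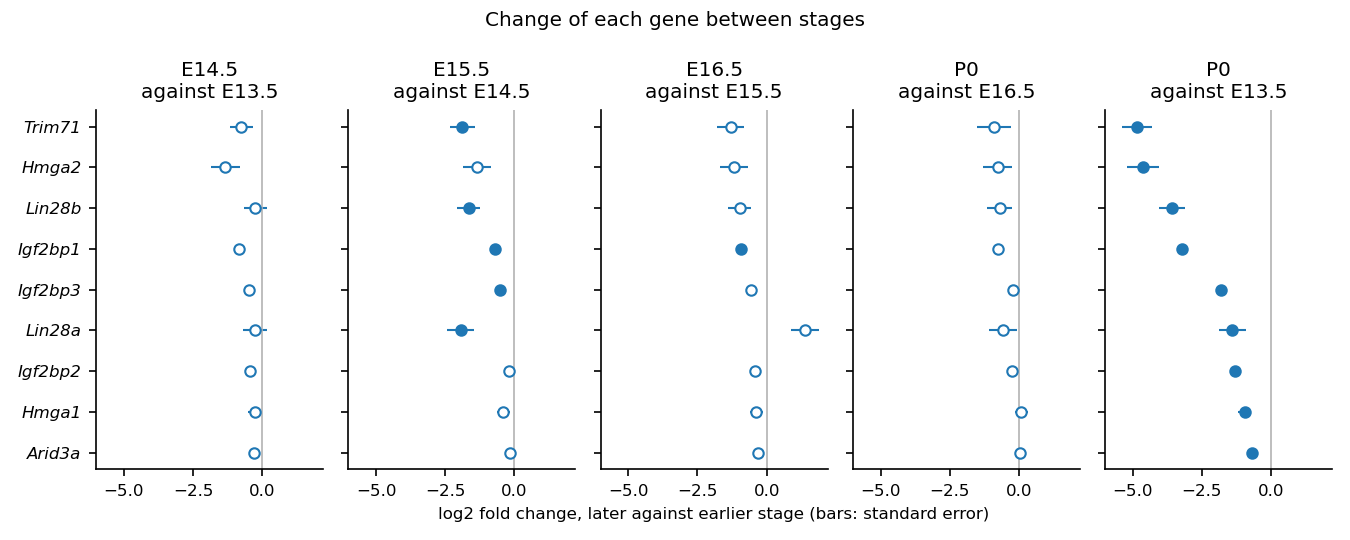
Log2 fold change of each gene (horizontal axis) in 4 steps between neighbouring stages and from E13.5 to P0, with bars of 1 standard error and filled points where edgeR's adjusted p was under 0.05. The points lie at or left of 0 in nearly all panels; the exception that stands apart is Lin28a at 1.38 from E15.5 to E16.5, which did not pass the test.

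Lin28b was at 11.5, 12.4 and 5.57 CPM in the 3 libraries of E13.5 and at 10.1, 9.03 and 5.71 CPM at E14.5. It was at 3.74, 2.50 and 1.63 CPM at E15.5, 1.04, 2.13 and 0.856 CPM at E16.5, and 0.887, 0.914 and 0.653 CPM at P0. The first and second stages overlapped, the E15.5 libraries were all below those of E14.5, and the stages from E15.5 on overlapped with their neighbours. The gene lies on chromosome 10 (45376620 to 45486395, minus strand). Its log2 fold change was -1.66 ± 0.42 (SE) from E14.5 to E15.5 (edgeR adjusted p = 0.014) and -3.58 ± 0.46 from E13.5 to P0 (edgeR adjusted p = 5.4e-05). The first of these was lost without E14.5 replicate 1 or E15.5 replicate 2 or 3 (edgeR adjusted p = 0.0598, 0.0537 and 0.0611).

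Lin28a, on chromosome 4 (134003330 to 134018841, minus strand), stayed under 1 CPM in all 15 libraries, with 3 to 67 counts. It was at 0.788, 0.944 and 0.356 CPM at E13.5, 0.841, 0.378 and 0.519 CPM at E14.5, and 0.169, 0.119 and 0.159 CPM at E15.5. It was at 0.583, 0.360 and 0.220 CPM at E16.5 and at 0.333, 0.305 and 0.131 CPM at P0. The E15.5 libraries were thus the lowest group, below every library of E14.5 and of E16.5. The log2 fold change was -1.95 ± 0.49 from E14.5 to E15.5 (edgeR adjusted p = 0.014) and 1.38 ± 0.50 from E15.5 to E16.5, which did not pass (edgeR adjusted p = 0.14). Without E14.5 replicate 1 or E15.5 replicate 2 the fall to E15.5 no longer passed (edgeR adjusted p = 0.0711 and 0.0582).

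Trim71, on chromosome 9 (114507133 to 114564369, minus strand), is a let-7 target and a regulator of early embryonic cells. It was at 3.01, 2.59 and 2.79 CPM at E13.5, 1.76, 1.80 and 1.40 CPM at E14.5, 0.354, 0.641 and 0.347 CPM at E15.5, and 0.173, 0.249 and 0.122 CPM at E16.5. At P0 it had 3, 6 and 0 counts. Every stage up to E16.5 lay wholly below the one before, and P0 overlapped E16.5. Its log2 fold change was -1.88 ± 0.44 from E14.5 to E15.5 (edgeR adjusted p = 0.01) and -4.84 ± 0.55 from E13.5 to P0 (edgeR adjusted p = 2.4e-05). With so few counts at P0 the latter value moved to -5.76 without P0 replicate 2 and to -4.36 without P0 replicate 3.

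Hmga2, after Trim71, had the largest fall of the 9 genes. The gene lies on chromosome 10 (120361275 to 120476469, minus strand). Its libraries were at 299, 201 and 326 CPM at E13.5, 73.3, 118 and 137 CPM at E14.5, and 31.4, 46.2 and 50.4 CPM at E15.5. They were at 11.7, 18.5 and 26.3 CPM at E16.5 and at 4.88, 5.58 and 23.0 CPM at P0. Each stage to E16.5 lay wholly below the one before, and P0 replicate 3 stood apart from the other P0 libraries, within the range of E16.5. None of the single steps passed edgeR's test, with log2 fold changes of -1.33 ± 0.51, -1.36 ± 0.51, -1.18 ± 0.51 and -0.77 ± 0.52 in order. The change from E13.5 to P0 was -4.64 ± 0.59 (edgeR adjusted p = 4.8e-05). Without P0 replicate 3 it was -5.69 (edgeR adjusted p = 8.1e-06), the step from E16.5 to P0 was -1.85 (edgeR adjusted p = 0.067), and the step from E14.5 to E15.5 passed (edgeR adjusted p = 0.014). With the replicate number as a block that step also passed (edgeR adjusted p = 0.024).

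Hmga1, on chromosome 17 (27556497 to 27563674, plus strand), fell less than Hmga2. It was at 93.6, 106 and 116 CPM at E13.5, 89.9, 81.3 and 91.0 CPM at E14.5, and 43.7, 70.8 and 83.7 CPM at E15.5. It was at 47.2, 43.9 and 62.2 CPM at E16.5 and at 45.8, 45.8 and 72.0 CPM at P0. Only the step from E13.5 to E14.5 had libraries that did not overlap, and from E15.5 on the spread within a stage exceeded the differences between neighbours. The log2 fold change from E13.5 to P0 was -0.95 ± 0.24 (edgeR adjusted p = 0.0046). Hmga1b on chromosome 11, at 15.3 ± 1.64 CPM at E13.5 and 10.5 ± 3.80 CPM at P0 (SD, n = 3), is annotated with a coding sequence identical to that of an Hmga1 isoform over 321 bases, so the division of reads between them is uncertain. With the counts of both summed, an addition made after the data were seen, the change was -0.89 (edgeR adjusted p = 0.0073).

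The 3 Igf2bp genes were all above 100 CPM at E13.5 and all fell, by unequal amounts. Igf2bp1, on chromosome 11 (95957163 to 96005940, minus strand), was at 139, 126 and 130.4 CPM at E13.5, 65.3, 78.0 and 79.8 CPM at E14.5, and 54.3, 40.0 and 41.8 CPM at E15.5. It was at 19.5, 25.1 and 26.9 CPM at E16.5 and at 12.4, 16.1 and 14.3 CPM at P0. It was the only one of the 9 genes in which every stage lay wholly below the one before. The 4 steps were nearly even, at -0.83 ± 0.15, -0.71 ± 0.15, -0.93 ± 0.16 and -0.74 ± 0.16 on the log2 scale, of which the second and the third passed (edgeR adjusted p = 0.007 and 0.024). From E13.5 to P0 the log2 fold change was -3.21 ± 0.17 (edgeR adjusted p = 1.1e-06), the smallest p among the 9 genes.

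Igf2bp3, on chromosome 6 (49085223 to 49214957, minus strand), was at 127, 121 and 127 CPM at E13.5, 83.1, 85.3 and 102 CPM at E14.5, and 58.3, 62.9 and 65.8 CPM at E15.5. It was at 35.0, 40.1 and 50.7 CPM at E16.5 and at 29.002, 41.5 and 36.8 CPM at P0. The stages to E16.5 did not overlap and the last pair did. Its log2 fold change was -0.53 ± 0.15 from E14.5 to E15.5 (edgeR adjusted p = 0.024) and -1.80 ± 0.16 from E13.5 to P0 (edgeR adjusted p = 5.6e-06). The former no longer passed without E14.5 replicate 3, any of E15.5 replicates 1, 2 and 3, or P0 replicate 3 (edgeR adjusted p from 0.0532 to 0.0702). It also did not pass with upper-quartile normalization, no filter or a mean of at least 1 CPM (edgeR adjusted p = 0.088, 0.075 and 0.056).

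Igf2bp2, on chromosome 16 (22059009 to 22163299, minus strand), is the member of that family with the widest adult expression. It was at 182, 154 and 185 CPM at E13.5, 106, 129.8 and 145 CPM at E14.5, and 101, 110.3 and 118 CPM at E15.5. It was at 70.6, 86.0 and 92.1 CPM at E16.5 and at 63.2, 68.4 and 78.9 CPM at P0. The step to E14.5 and the step to E16.5 had libraries that did not overlap, and no single step passed the test. From E13.5 to P0 the log2 fold change was -1.31 ± 0.15 (edgeR adjusted p = 2.2e-05).

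Arid3a, on chromosome 10 (79927043 to 79955018, plus strand), had the smallest fall. It was at 26.6, 23.9 and 24.0 CPM at E13.5, 20.1, 20.7 and 19.98 CPM at E14.5, and 15.2, 20.9 and 18.8 CPM at E15.5. It was at 12.1, 16.3 and 16.3 CPM at E16.5 and at 10.8, 15.9 and 19.8 CPM at P0. Apart from the first step the neighbouring stages overlapped. The log2 fold change from E13.5 to P0 was -0.68 ± 0.20 (edgeR adjusted p = 0.013).

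The order of the genes by level changed over the course. On a scale of CPM per kilobase of summed exon length at E13.5, Hmga1 was at 49.4 ± 5.17 and Hmga2 at 40.6 ± 9.73 (SD, n = 3), values that did not differ beyond their spread. Igf2bp2 followed at 23.4 ± 2.32, Igf2bp3 at 15.3 ± 0.461, Igf2bp1 at 13.6 ± 0.663, Arid3a at 4.46 ± 0.273, Lin28b at 1.09 ± 0.411, Trim71 at 0.300 ± 0.0224 and Lin28a at 0.174 ± 0.0761. At P0 Hmga1 was at 25.7 ± 7.13, Igf2bp2 at 9.48 ± 1.08, Igf2bp3 at 4.39 ± 0.776 and Arid3a at 2.79 ± 0.808 CPM per kilobase. Hmga2 at 1.65 ± 1.52 and Igf2bp1 at 1.47 ± 0.188 CPM per kilobase then had means below that of Arid3a. Hmga2 did not differ beyond the spread from Igf2bp1 or from Arid3a. The exon length of Lin28b in the table includes non-coding transcripts, which lowers its value per kilobase.

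Ratios between genes of the same family were tested to ask whether paralogues fell in parallel. The log2 ratio of length-scaled counts (0.5 counts added to each) was compared between stages by an exact permutation test over all 1401400 divisions of the 15 libraries into 5 groups of 3, with Benjamini-Hochberg adjustment over 5 pairs. All 5 ratios differed between stages by more than the spread of their libraries. Hmga1 stood to Hmga2 at a log2 ratio of 0.31 ± 0.39 (SD, n = 3) at E13.5, a ratio of 1.24, and at 4.31 ± 0.86 at P0, a ratio of 19.8 (exact permutation test, adjusted p = 2.9e-05). In every library of E14.5 and later Hmga1 was above Hmga2. The P0 libraries were at log2 ratios of 4.90, 4.71 and 3.32, the last being replicate 3.

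Igf2bp2 exceeded Igf2bp1 by 1.72-fold at E13.5 and 6.43-fold at P0, with log2 ratios of Igf2bp1 to Igf2bp2 from -0.78 ± 0.11 to -2.69 ± 0.19 (SD, n = 3; exact permutation test, adjusted p = 3.6e-06, from a raw p that is the smallest this test can give). Igf2bp3 exceeded Igf2bp1 by 1.12-fold at E13.5 and 2.96-fold at P0 (log2 ratios of Igf2bp1 to Igf2bp3 of -0.17 ± 0.04 and -1.56 ± 0.08; exact permutation test, adjusted p = 9.4e-05). The ratio of Igf2bp2 to Igf2bp3 moved least, from a log2 ratio of 0.61 ± 0.10 to 1.12 ± 0.23 (exact permutation test, adjusted p = 0.0021). Within this family Igf2bp1 thus fell furthest and Igf2bp2 least.

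Lin28a stood below Lin28b at log2 ratios of -2.65 ± 0.11 at E13.5, -2.67 ± 0.61 at E14.5 and -2.82 ± 0.61 at E15.5, and at -0.57 ± 0.86 at E16.5 and -0.51 ± 0.41 at P0 (SD, n = 3; exact permutation test over the 5 stages, adjusted p = 0.0021). The ratio thus lay apart in the last pair of stages, at which Lin28a had 3 to 27 counts and Lin28b 15 to 77 counts in a library.

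**Figure D3:**
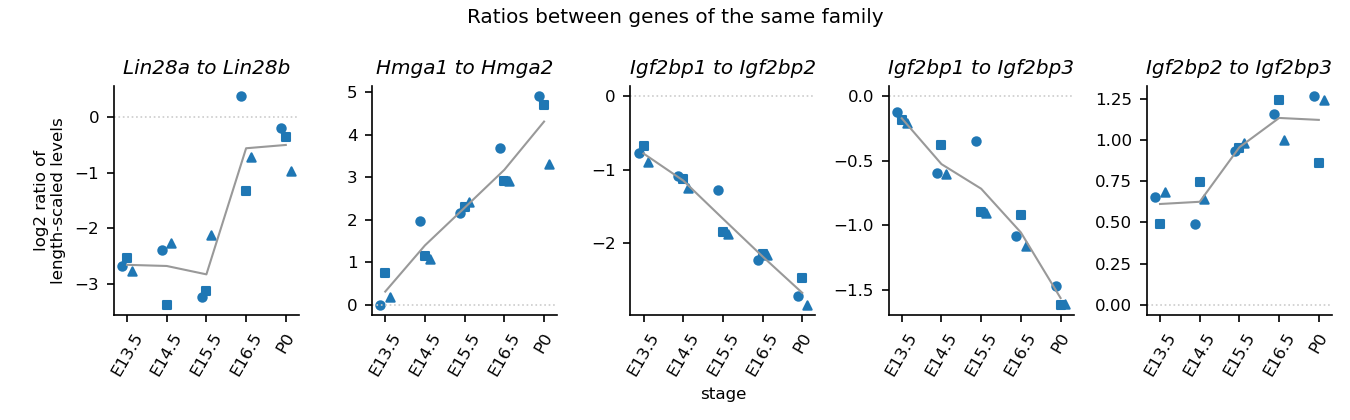
Log2 ratio of length-scaled levels (vertical axis) for 5 pairs of genes of the same family at the 5 stages, with 1 point per library and a line through the stage means. The Hmga1 to Hmga2 ratio rises from 0.31 to 4.31, and the Igf2bp1 to Igf2bp2 ratio falls from -0.78 to -2.69.

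The number of let-7 matches was set beside the change from E13.5 to P0. The 4 genes with 4 matches, Trim71, Hmga2, Lin28b and Igf2bp1, were the 4 with the largest falls among the 9. Over all 16866 tested genes with an annotated 3′ UTR, the share called lower at P0 was 28.1% of 15166 genes with no match, 33.4% of 1491 with 1 match, 45.6% of 180 with 2 and 51.7% of 29 with 3 or more. Without the 9 genes the last share was 44.0% of 25. The median log2 fold changes of these classes were 0.06, -0.15, -0.38 and -0.46, the last being -0.39 without the 9 genes. The median length of the 3′ UTR also differed between the classes, at 1013, 2146, 3465 and 4466 bases, and its part in these values was not tested.

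Among the 12 genes with 4 or more matches, 7 fell, 1 rose and 4 did not pass the test. Over all 16866 tested genes with an annotated 3′ UTR, 28.8% were called lower. Of the 7 of these 12 that fell, 4 are among the 9 genes described here, most of which are known let-7 targets, so their falls are not independent of the choice of genes. Beside the 4 genes above, Hic2, a transcriptional repressor, fell by 1.98 on the log2 scale (edgeR adjusted p = 1.2e-05), and Zbtb37 and D10Wsu102e fell by 1.38 and 0.69. The annotated 3′ UTRs of Zbtb37 and D10Wsu102e are long, at 16999 and 122583 bases. Nr6a1, a nuclear receptor of early development with 8 matches, the most of the 12, was at -0.24 ± 0.22 (edgeR adjusted p = 0.35). Mcf2l and Nudt12, with 7 matches each, and Trim6, with 6, did not pass either, at -0.11, -0.07 and -0.46. No gene with more than 4 matches was thus called lower. Ptafr, the receptor for platelet-activating factor, was higher by 0.88 ± 0.32 (edgeR adjusted p = 0.033). Let-7 itself was not measured by these libraries: the 12 let-7 and miR-98 hairpin genes in the table had at most 6 counts in a library, and none was tested.

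**Figure D4:**
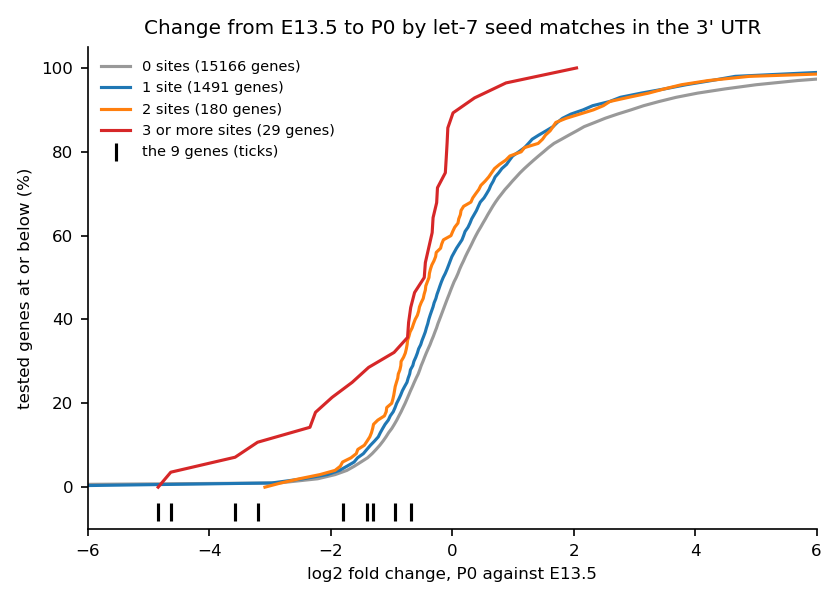
Share of tested genes at or below each log2 fold change from E13.5 to P0 (horizontal axis), by the number of let-7 seed matches in the 3′ UTR, with ticks for the 9 genes, which are also included in the curves; the horizontal axis is cut at both ends. The curve for 3 or more matches (29 genes, median -0.46) lies left of that for no match (15166 genes, median 0.06).

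Of 16 genes for the making and decay of microRNAs, 13 were lower at P0 than at E13.5 and none was higher (edgeR), where 26.8% of all tested genes were called lower. Their median log2 fold change was -1.04, against 0.03 over all tested genes. The largest falls were in Tut4, a terminal uridylyltransferase that Lin28a recruits to precursor let-7 (-1.93 ± 0.17, edgeR adjusted p = 5e-06), in the Argonaute gene Ago1 (-1.83 ± 0.32) and in the helicase gene Ddx17 (-1.63 ± 0.14). Tut4 was at 174, 153 and 145 CPM at E13.5 and at 33.0, 52.9 and 38.3 CPM at P0. The nuclease gene Drosha changed by -1.04 ± 0.11 and Dicer1 by -1.04 ± 0.17. Those that did not pass were Tarbp2 (-0.13 ± 0.11), Ago2 (-0.26 ± 0.29) and Dis3l2 (-0.04 ± 0.12), the nuclease that degrades uridylated let-7 precursors. Between E14.5 and E15.5, 9 of the 16 fell, where 13.4% of all tested genes were called lower.

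Of 20 other genes listed as let-7 targets, 15 fell and 2 rose from E13.5 to P0. Over all tested genes 26.8% were called lower and 29.8% higher. The median log2 fold change of the 20 was -0.94, against 0.03 over all tested genes. A seed match in the longest 3′ UTR was held by 14 of the 20. The largest falls were in Igdcc3, a surface protein of the immunoglobulin superfamily (-2.40 ± 0.43), in the cell cycle phosphatase gene Cdc25a (-1.57 ± 0.15) and in Smarcc1, a subunit of chromatin remodelling complexes (-1.56 ± 0.14). Cdc34, a ubiquitin-conjugating enzyme, rose by 0.72 ± 0.26 (edgeR adjusted p = 0.029). Acvr1c, an activin receptor, also passed, at 3.78 ± 1.36 (edgeR adjusted p = 0.031), but its P0 libraries were at 1.39, 14.97 and 0.218 CPM, and the last lay below all E13.5 libraries.

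Among 10 mRNAs listed as bound by Igf2bp proteins, 3 fell and 3 rose from E13.5 to P0, with a median of 0.06 against 0.03 over all genes. Over all tested genes 26.8% were called lower and 29.8% higher, so both shares of this list are near those of all genes. H19, a non-coding RNA, rose by 2.01 ± 0.43, Cd44, a hyaluronan receptor, by 2.48 ± 0.35 and Ptgs2, a prostaglandin synthase, by 2.64 ± 0.45. Of those that fell, Btrc, a ubiquitin ligase subunit, fell by 0.67 and the actin gene Actb by 0.32. Beside the same 26.8% and 29.8% of all tested genes, 7 of 15 relatives of the 9 genes fell and 1 rose, with a median of -0.44. Arid3b (-1.53 ± 0.19), Trim32 (-1.49 ± 0.21) and Hmgb3 (-1.36 ± 0.20) had the largest falls, and the cold shock domain gene Ybx3 rose by 1.28 ± 0.19. Arid3b, a let-7 target like Arid3a, thus had the larger fall of the pair, though the difference between them was not tested.

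Of 25 cell cycle genes, 24 were lower at P0 than at E13.5 (edgeR), where 26.8% of all tested genes were called lower. Their median was -1.25, against 0.03 over all tested genes. The falls were led by Bub1 (-2.26 ± 0.25), Mcm4 (-1.84 ± 0.22) and Mcm2 (-1.70 ± 0.18). From E14.5 to E15.5, where 5 of the 9 genes fell, none of the 25 passed edgeR's test, none had an unadjusted p under 0.05, DESeq2 called none, and their median was 0.11. Over all tested genes 26.1% passed edgeR's test at that step and 39.7% had an unadjusted p under 0.05. From E13.5 to E14.5, 21 of the 25 had an unadjusted p under 0.05, against 16% of all tested genes, with none passing edgeR's test and 3 called by DESeq2. Their median at that step was -0.61, beside -0.45 for the 9 genes. From E15.5 to E16.5, 19 of the 25 had an unadjusted p under 0.05, against 21.8%, with none passing edgeR's test and 1 called by DESeq2, and the medians were -0.55 for the 25 and -0.57 for the 9. Whether the steps of the 2 groups differ was not tested. In all 5 stages the library with the highest summed level of these genes was also the highest in Hmga1, Hmga2 and Igf2bp2. In none was it the highest in Lin28b. The library with the lowest sum was also the lowest in Hmga1, Hmga2 and Igf2bp2 in only 2 stages each. The highest library was replicate 3 at every stage, so the match cannot be told apart from a difference that goes with the replicate number.

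**Figure D5:**
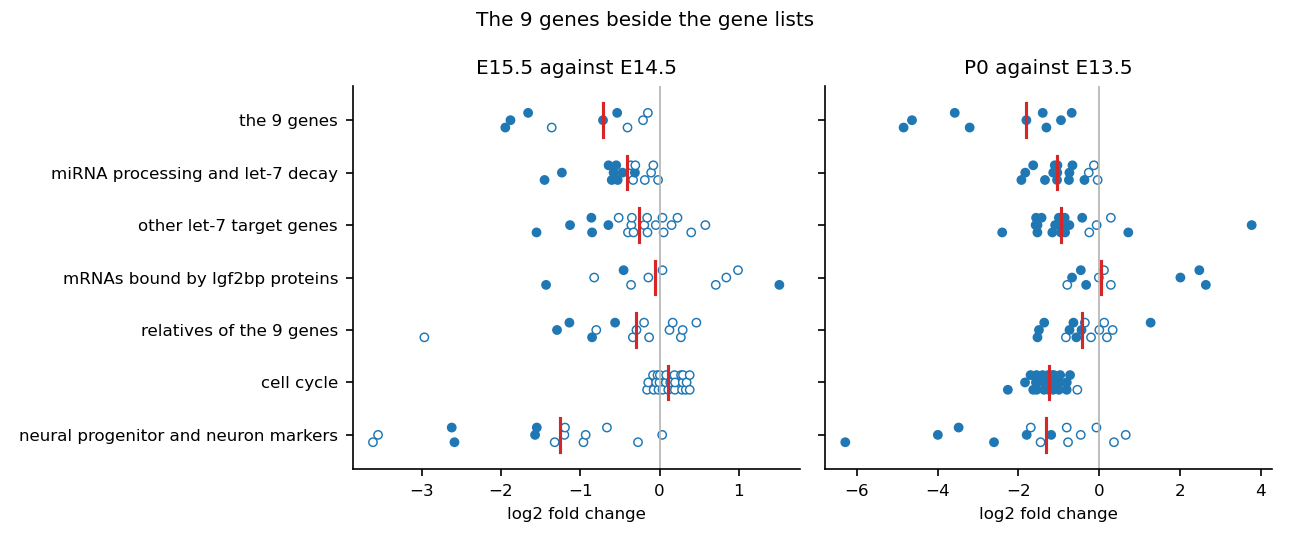
Log2 fold change from E14.5 to E15.5 and from E13.5 to P0 (horizontal axes) for each tested gene of 7 groups, with filled points where edgeR's adjusted p was under 0.05 and red bars at the group medians. From E14.5 to E15.5 the cell cycle genes centre on 0.11 while the 9 genes centre on -0.71; from E13.5 to P0 their medians are -1.25 and -1.80.

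Markers of other cells moved with some of the 9 genes. The summed level of 14 neural progenitor and neuron markers ranged from 1072 to 3522 CPM at E13.5, 2638 to 5555 CPM at E14.5, 1091.5 to 2059 CPM at E15.5, 1299 to 2223 CPM at E16.5 and 999.9 to 1836 CPM at P0. In 4 of the 5 stages the library with the highest sum was also the highest in Lin28b, and in 4 the lowest was also the lowest in Lin28b. For Lin28a the highest library was the same in 4 stages and the lowest in 2. Such a match was not particular to the neural markers. With summed pluripotent and germ cell markers the highest library matched Lin28a and Lin28b in 3 stages each, and the lowest in 4 each. At E13.5, replicate 2 was highest in Sox1, a transcription factor of neural progenitors, at 57.1 CPM, and replicate 3 was lowest at 1.17 CPM, as they were in Lin28b. Of the 14 markers, 4 fell from E14.5 to E15.5, where 13.4% of all tested genes were called lower. From E13.5 to P0, 6 of the 14 fell, where 26.8% of all tested genes were called lower. Without the libraries of highest neural sum at these stages, E13.5 replicate 2 and E14.5 replicate 1, an alternative added after the data were seen, 1 of the 9 genes rather than 5 passed from E14.5 to E15.5, and 8 rather than 9 from E13.5 to P0. The genes of the lists called from E14.5 to E15.5 also went from 54 to 31 in that fit, which has fewer libraries. There the log2 fold change from E14.5 to E15.5 was -1.50 in Lin28b (edgeR adjusted p = 0.066) and -1.59 in Lin28a (edgeR adjusted p = 0.074), against -1.66 and -1.95 in all libraries. It was -1.84 in Trim71 (edgeR adjusted p = 0.0502) and -0.60 in Igf2bp3 (edgeR adjusted p = 0.059), against -1.88 and -0.53. From E13.5 to P0 Lin28b was at -3.38 in that fit (edgeR adjusted p = 5e-04). The summed level of 8 choroid plexus markers was uneven at E14.5, at 1494, 82.0 and 877 CPM in the 3 libraries, against 65.9 to 206 CPM at E13.5. The highest of these at E14.5 was replicate 1, which was also the highest in the neural sum, Lin28a and Lin28b. The part of neural or choroid plexus cells in the levels of Lin28a and Lin28b was not tested.

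P0 replicate 3, the library with the highest Hmga1, Hmga2, Igf2bp2 and Arid3a of its stage, also stood apart in markers. Its cell cycle sum was 1869 CPM against 1206 and 1167 CPM in the other P0 libraries, its stratified epithelium sum was 6172 CPM against 1445 and 4159 CPM, and its skeletal muscle sum was 5810 CPM against 26095 and 31547 CPM. The palatal mesenchyme gene Msx1 was at 63.3 CPM in it against 4.13 and 9.75 CPM. The library with the highest summed stratified epithelium markers was the highest in Hmga2 and Igf2bp2 in all 5 stages, and the library with the lowest was the lowest in both in all 5. The highest was replicate 3 at every stage, and the lowest was replicate 2 at E13.5 and replicate 1 at the later stages. The match thus cannot be told apart from an order that goes with the replicate number. With summed osteoblast markers the highest library matched both genes in 4 stages and the lowest in 2. The part of any of these cell types in the levels of the 9 genes was not tested.

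Of 6 tested pluripotent and germ cell markers, 2 passed edgeR's test as lower from E13.5 to P0, Nanog and Ddx4, and DESeq2 called 1; such a share is near the 26.8% of all tested genes called lower. The defining pluripotency gene Pou5f1 was at or below 0.0610 CPM in all libraries, at which depth it was not distinguishable from the floor. The other lists are given by count from E13.5 to P0 (edgeR), beside 26.8% lower and 29.8% higher over all tested genes. Of 12 erythroid genes 4 fell, led by the embryonic globins Hba-x and Hbb-y, and of 7 tested B cell markers 2 fell and 4 rose, Pax5 and Ebf1 being those that fell, so that the shares that fell are near that of all genes. Of 8 choroid plexus markers 3 rose, of 12 stratified epithelium markers 8 rose, of 12 skeletal muscle genes 9 rose and of 10 osteoblast genes 9 rose. Of 10 mesenchyme markers 6 fell, among them Tbx22, Shox2 and Prrx1, and 2 rose, the collagen genes Col1a2 and Col3a1.

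The 9 genes were also compared with each other and with all genes of at least 1 CPM by the Pearson correlation of log2 CPM over the 15 libraries, a description in which the shared stages set most of the value. Between the 9 genes, r ranged from 0.220 for Lin28a and Arid3a to 0.981 for Hmga2 and Igf2bp2 over 36 pairs, with a median of 0.855. Lin28a was the gene least like the others, but it held only 3 to 67 counts in a library. The part of counting error in its low r was not tested. The genes most like Hmga2 were Nasp, Pank2, Hnrnpm, Cbx1 and Msh6 (r from 0.985 to 0.988), and those most like Lin28b were Hfm1, Nr2f2, Dennd2a, Zfhx3 and Zfp423 (0.974 to 0.988). Igf2bp1 was most like Plekha8, Sept11, Rbm28, Tut4 and Smarcc1 (0.982 to 0.985), Igf2bp2 like Tgif2, Mybbp1a, Poc1b, Mre11a and Raver2 (0.981 to 0.987), and Igf2bp3 like Supt16, Smad5, Topors, Nucks1 and Smarcc1 (0.987 to 0.990). Trim71 was most like Mogat2, Hba-x, Prdm16, Prpf8 and Washc5 (0.958 to 0.979) and Hmga1 like Ptma, Hmgn1, Cdc42ep4, Rcc2 and Unc119b (0.953 to 0.956). Arid3a was most like 4731419I09Rik, Il17rd, Nfat5, Zfp101 and Cspp1 (0.953 to 0.973). The values for Lin28a were lower, led by 4833439L19Rik, Spsb4, Usp4 and Dnajc11 (0.873 to 0.895).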

How the data were processed

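The authors deposited 1 table of raw fragment counts per gene, made with featureCounts 2.0.1 on the reverse strand of GENCODE M18 from adapter-trimmed, duplicate-marked alignments, per the file headers. Per the submitters' processing notes, cutadapt 3.4, HISAT2 2.2.1, Bowtie2 and SAMtools 1.12 were used with mm10; their order is not given in the sources used here. How reads that match several places were counted is not given in the sources used here, which bears on near-identical copies such as Hmga1b. Symbols came from GENCODE M21 for 54079 of 54232 genes, and all 9 genes had the same position there. The table's summed exon length per gene was used as deposited.

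Stages were taken from the labels. Genes were filtered with filterByExpr (minimum count 10), scaled by TMM, and a model with 1 term per stage was fitted to all 15 libraries with edgeR 4.0.16 under R 4.3.3, with Benjamini-Hochberg adjustment over 22151 genes and a threshold of 0.05. The standard error of a log2 fold change is its size over the square root of F. The common biological coefficient of variation was 0.332. Log2 CPM used a prior count of 2. Named were all 9 genes, per list the 3 largest rises and falls from E13.5 to P0 (adjusted p under 0.05, at least 1 CPM in the higher stage), markers that were absent or moved with one of the 9, and the 5 most similar genes of each; a few genes that this rule names are not reported here. Drosha, Dicer1 and the list genes that did not pass, and genes with 4 or more let-7 matches, were named after their values were seen. The 9 genes and the 14 lists were chosen with earlier results of these data known, and some genes stand in more than 1 list. Libraries of a stage differed far beyond counting error (chi-square per degree of freedom from 29.5 to 225), so none was a repeat deposit. The procedure was also run on simulated counts, drawn with the spread estimated in the main fit and with known changes placed at P0 only. Such a run cannot show differences between libraries that go with the replicate number or with the cells sampled. Alternatives were DESeq2 1.42.0, other normalizations and filters, the 6 libraries of a contrast alone, a replicate block and leaving out each library.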

Additional observations from a re-analysis of the deposited data

How the results depend on the processing

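All 207 alternative values of the 9 genes from E13.5 to P0 were lower at P0, and 199 passed the threshold. Over all contrasts, 987 of 1034 alternative values kept their direction and side of the threshold, and 5 changed sign: Lin28a from E13.5 to E14.5 without E13.5 replicate 2, Hmga1 from E16.5 to P0 without E16.5 replicate 2 or P0 replicate 3, and Arid3a from E16.5 to P0 without E16.5 replicate 1 or P0 replicate 3. None of these had passed. Leaving out 1 library at a time, their log2 fold changes ran from -0.63 to 0.019, -0.17 to 0.25 and -0.16 to 0.26. The cause was not tested.

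Counts of the 9 genes called moved as follows. DESeq2 gave 1 from E13.5 to E14.5 and 1 from E16.5 to P0 where edgeR gave 0, and 3 from E15.5 to E16.5 where edgeR gave 1; the fit to 6 libraries gave 0 there. From E14.5 to E15.5 a mean of at least 1 CPM gave 3 (Lin28a was then not tested) and leaving out both libraries of highest neural sum gave 1, against 5. Upper-quartile normalization and the fit with no filter each lost the call of Igf2bp3 at that step. Leaving out 1 library at a time gave 2 to 5 from E14.5 to E15.5, 0 to 2 from E15.5 to E16.5 and 0 to 1 from E16.5 to P0. Of the list genes, DESeq2 called 12 from E13.5 to E14.5, 25 from E15.5 to E16.5 and 7 from E16.5 to P0, against 0, 2 and 1 with edgeR. From E15.5 to E16.5 DESeq2's size factors gave 1, and the 6 libraries alone or leaving out both libraries of highest neural sum gave 0; from E16.5 to P0 these, upper-quartile normalization, DESeq2's size factors and no filter gave 0. From E14.5 to E15.5, leaving out both libraries gave 31 list genes against 54. Leaving out 1 library at a time gave 29 to 57 in that step, 0 to 15 from E15.5 to E16.5 and 0 to 2 from E16.5 to P0, the 15 being without P0 replicate 3.

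The replicate numbers are shared by the stages but nothing in the labels pairs them. Over 30 same-numbered pairs the correlation of deviations from stage means ran from -0.30 to 0.55, and 7 of 15 libraries were closest to their own number. With the replicate block, 2 of the 9 genes were called from E15.5 to E16.5 (1 without it), and 4, 12 and 0 list genes from E13.5 to E14.5, E15.5 to E16.5 and E16.5 to P0. The depth limits Lin28a and Trim71, whose late libraries held as few as 3 and 0 counts.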
